A study of Caenorhabditis elegans with 7 samples.

Results

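Of the 2436 regions in the combined list of PHA-4::GFP peaks, 406 lay on chromosome III of the nematode Caenorhabditis elegans, and these 406 are described here. They were taken by chromosome name alone, with no measured value used in the choice. The experiment was chromatin immunoprecipitation with sequencing (ChIP-seq) on young adult hermaphrodites of strain OP37, grown at 20 °C. The strain carries the mutation unc-119(ed3), which itself maps to chromosome III, and the transgene wgIs37, which supplies unc-119(+) and pha-4 fused to TY1, EGFP and 3xFLAG. The transgene was introduced by bombardment, and no label says where it integrated. Per the labels, the fusion protein follows the normal pha-4 expression pattern. No sample of an untagged strain is among those used here. Antibodies against GFP recovered the fusion protein, so the peaks report the tagged protein, present beside the worm's own pha-4 gene. There was 1 condition. ChIP DNA came from 2 replicates with 2 sequenced samples each, and 3 input samples of replicate 2 served as unselected DNA.

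PHA-4 is the FoxA transcription factor of C. elegans. It specifies the cells of the pharynx in the embryo and acts later in the gut and in the response to restricted food. FoxA proteins bind a short forkhead motif in nucleosomal DNA and are known as pioneer factors. Worm autosomes have gene-dense centres with little recombination and repeat-rich arms with more of it. Chromosome III carries the Hox genes lin-39, mab-5, ceh-13 and egl-5, which pattern the body axis. Chromatin was taken from whole animals, so a region bound in few cells and a region bound weakly in many cannot be told apart.

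The authors deposited 3 peak lists made with PeakSeq on genome build WS190, 1 for each replicate and 1 for the combined data. On chromosome III they held 75 peaks in replicate 1, 325 in replicate 2 and 406 in the combined list. Each peak has a first and a last base and a q-value, which is the significance of its ChIP signal after correction over many candidate regions. Strength below means −log10 of the q-value within 1 list. It is the authors' value, it can grow with read depth and peak width, and it served only to rank peaks within a list. Read depth is unknown because the lists hold no counts. Regions are named by position and not by gene, since gene models of WS190 were not used. All positions below are on chromosome III in WS190.

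The strongest PHA-4::GFP regions of chromosome III lay to the right of its centre, around 10.2 to 10.3 Mb. The first ran from 10327137 to 10330444 (3308 bp) with a combined q of 9.63e-55. Replicate 1 gave it q = 2.33e-13 and replicate 2 q = 1.56e-36, where it was the strongest peak of the chromosome. It was flanked by further peaks at 10325024 to 10326691 (combined q = 3.55e-21) and 10330790 to 10331766 (q = 4.91e-08), and both flanking peaks were also found in both replicate lists. The second region, 10213886 to 10217379 (3494 bp, combined q = 1.86e-51), stood alone, with 31041 bp to its nearest neighbour. It ranked 3 of the 75 peaks of replicate 1 on III and 2 of the 325 of replicate 2.

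Next in rank was 832160 to 836415 near the left end (4256 bp, q = 3.22e-36), also without a close neighbour, since the nearest peak was 95702 bp away. Replicate 2 called 1 peak inside it and replicate 1 called 2. The fourth, 10715300 to 10720542 (5243 bp, q = 4.53e-33), was the strongest of the chromosome that replicate 1 lacked. Replicate 2 gave it q = 2.27e-25. With this region, 3 of the 4 strongest peaks of the chromosome fell between 10 and 11 Mb.

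The remaining 6 of the 10 strongest peaks had combined q-values from 1.47e-32 to 3.42e-25. Region 5501616 to 5506642 held 2 replicate 2 peaks, 5501623 to 5504739 (q = 4.15e-16) and 5505434 to 5506690 (q = 1.02e-09). Replicate 1 called a weak peak inside the right-hand one, 5505963 to 5506504 (q = 0.00381), and none at the left-hand one. Region 12612232 to 12612880 was only 649 bp wide (q = 1.57e-32), and both replicates called nearly the same interval, 565 bp in replicate 1 and 646 bp in replicate 2. Region 13462518 to 13465503, near the right end, was relatively prominent in replicate 1, where it ranked 2 on the chromosome, and ranked 18 in replicate 2. Region 8526332 to 8529136 ranked 7 of 75 in replicate 1 and 31 of 325 in replicate 2. It held 2 replicate 2 peaks, and the rank given is that of the stronger. Region 8652156 to 8654394 ranked 54 in replicate 1 and 4 in replicate 2. Region 5550555 to 5552597 was absent from the replicate 1 list and ranked 3 in replicate 2. Ranks in lists of unlike length describe each list and do not measure a change.

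**Figure D1:**
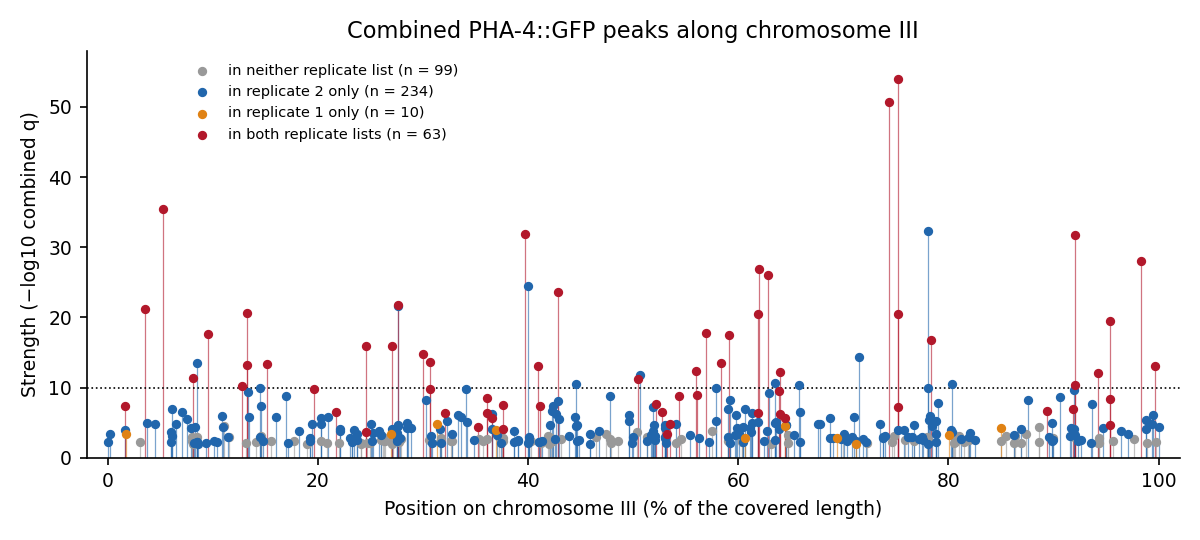
Strength (−log10 combined q) of the 406 chromosome III peaks against position as a percentage of the covered length, 1 point with a drop line per peak, coloured by presence in the replicate lists; the dotted line marks q = 1e-10. The 2 highest points, at 54.0 and 50.7, lie next to each other at about 75% of the length, and peaks found in neither replicate list have strengths of at most 4.55.

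Peaks found in both replicate lists were the stronger ones. Both replicate lists held 63 of the 406 peaks (15.5%, 95% exact binomial interval 12.1 to 19.4), against 12.9% of all 2436 combined peaks. Replicate 2 alone held 234 (57.6%), replicate 1 alone 10 (2.46%) and neither 99 (24.4%, 20.3 to 28.9). On the other 5 chromosomes replicate 2 alone held 55.7%, replicate 1 alone 2.46% and neither 29.5%, and without chromosome I the last share was 25.3%. Any overlap of at least 1 bp counted. The median strength of peaks in both lists was 11.4. It was 3.84 with replicate 2 alone, 3.39 with replicate 1 alone and 2.41 where no replicate peak overlapped. By its label the combined list draws on both replicates, so its peaks are not independent of the replicate lists.

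Among the 50 strongest peaks of the chromosome, replicate 2 held 50 and replicate 1 held 37. Among the next 50, replicate 2 again held 50 and replicate 1 held 18. From rank 101 to 200 the numbers were 91 and 11, and from rank 301 to 406 they were 48 and 1. The strongest combined peak without a replicate 2 partner, 4378476 to 4379227, stood only at rank 135 of the chromosome (q = 1.73e-05). Replicate 1 gave that site q = 0.000218, and it was the strongest of the 11 replicate 1 peaks that replicate 2 lacked.

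Read from the replicate side, 64 of the 75 replicate 1 peaks on III (85.3%, 75.3 to 92.4) overlapped a replicate 2 peak, and 75 of 75 were in the combined list. Both shares were computed for III only, with no value for the other chromosomes beside them. The 11 peaks without a partner had a median strength of 2.61, against 3.56 for those with one. Their q ran from 0.000218 to 0.00965 and their widths from 390 to 887 bp. The strongest of them stood at rank 31 of the 75, with a strength of 3.66. After 4378572 to 4379108 came 10989371 to 10989890 (q = 0.000342), 5129140 to 5129612 (q = 0.000425), 354484 to 355370 (q = 0.000836) and 5225787 to 5226562 (q = 0.00123). The last of these lay inside a stronger combined peak, 5224418 to 5227054 (q = 2.91e-08), to which replicate 2 contributed a separate peak at 5224499 to 5225724.

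Of the 325 replicate 2 peaks on III, 261 had no replicate 1 partner. The matching share on the other chromosomes was not computed, so this count is not offered as a trait of III. The replicate 1 list had only 75 peaks on III, so most of the 325 could not have had a partner of their own. Over all chromosomes 418 peaks were in replicate 1 and 1834 in replicate 2. Some of the 261 were strong. The leading ones were 5550617 to 5552616 (q = 3.65e-26) and 10716877 to 10720610 (q = 2.27e-25). They were followed by 5501623 to 5504739 (q = 4.15e-16), 3870717 to 3873068 (q = 5.69e-15) and 1278909 to 1279682 (q = 2.27e-14). All 5 were in the combined list, and the combined region over 5501623 to 5504739 also held the right-hand pair of replicate peaks given above. Absence from the replicate 1 list means only that no peak was called there at a depth that is unknown.

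Where 1 combined peak matched 1 replicate peak and no other, the positions were close. The midpoints of 287 such pairs with replicate 2 lay a median of 14 bp apart, and 237 of them were within 100 bp. For the 71 pairs with replicate 1 the median was 90.5 bp. Peaks in replicate 1 were narrower than their combined partner in 68 of 71 pairs, with a median width ratio of 0.712, and in replicate 2 the ratio was 0.975. Directly between the replicates, 58 pairs had midpoints a median of 84.3 bp apart, and the replicate 2 peak was the wider in 48 of them. Across these 58 pairs strength had a Spearman rho of 0.58, a description over peaks of the same pair of lists.

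Most regions were narrow, with a tail of broad ones. The median width of the 406 peaks was 485.5 bp, with quartiles of 349 and 866 bp. Of these, 84 (20.7%) measured 1000 bp or more, against 21.9% of all combined peaks. Under 100 bp there were 12, and 5 to 13 on each of the other 5 chromosomes. The widest was 7718283 to 7724831 (6549 bp), although its q of 4.91e-13 placed it only at rank 34 of the chromosome. It held 2 replicate 2 peaks and 1 replicate 1 peak of 1151 bp. The second widest, 5836380 to 5842079 (5700 bp), had a combined q of 2.04e-05 and stood at rank 141 of the chromosome. Replicate 2 gave it q = 8.12e-06, rank 86 of that list on III, and replicate 1 had no peak there. Regions 10715300 to 10720542, 5501616 to 5506642 and 3869116 to 3874034 (4919 bp, q = 2.52e-22) completed the 5 widest.

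Width and strength went together over the 406 peaks with a Spearman rho of 0.47, which the way q-values are made can itself produce. On the other 5 chromosomes rho ran from 0.45 to 0.49 in the combined list. In replicate 1 rho was 0.29 on III, below the 0.34 to 0.72 of the others. In replicate 2 it was 0.38, where the others had 0.38 to 0.53. These values were not tested. Some regions stood off the relation in the combined list. Of the 45 peaks with a combined q of 1e-10 or less, 15 were narrower than 1000 bp. Elsewhere such narrow strong peaks numbered 10 of 36 on I, 10 of 42 on II and 11 of 40 on IV. On V they numbered 11 of 49 and on X 19 of 54. Both replicate lists held 12 of the 15 narrow ones on III, and 35 of all 45. Besides 12612232 to 12612880 the 15 included 3866857 to 3867764 (908 bp, q = 1.52e-22). In replicate 1 the latter site was the strongest peak of the chromosome, at 3867369 to 3867741, a width of 373 bp and q = 8.67e-18. The narrowest of the 15 was 1859584 to 1859895 (312 bp, q = 5.81e-11), called at 307 bp in replicate 1 and 299 bp in replicate 2. Also under 400 bp and in both lists were 8043759 to 8044098 (340 bp, q = 2.85e-14) and 3456243 to 3456605 (363 bp, q = 1.00e-16).

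**Figure D2:**
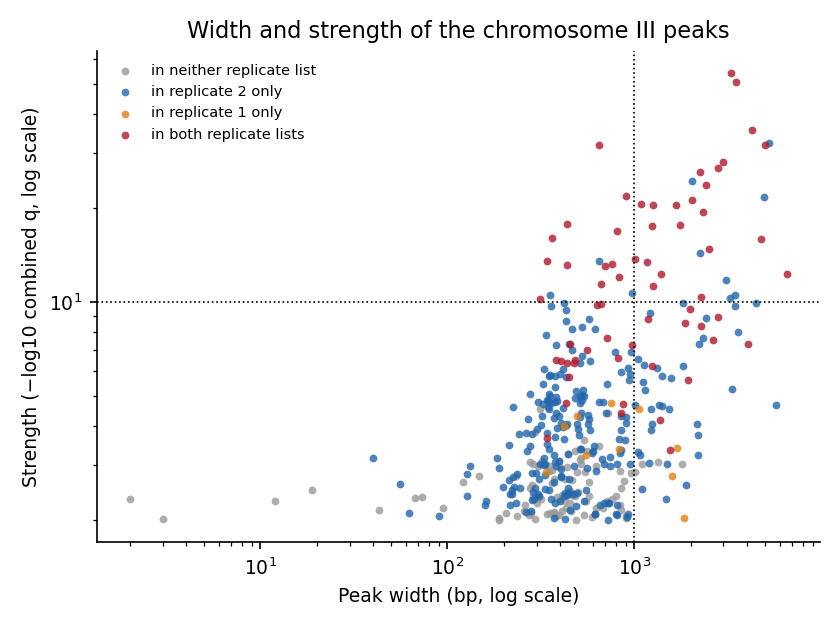
Width (bp, log scale) against strength (−log10 combined q, log scale) of the 406 chromosome III peaks, 1 point per peak, coloured by presence in the replicate lists; dotted lines mark 1000 bp and q = 1e-10. The upper left field holds the 15 narrow strong peaks, and the points under 50 bp lie at the bottom.

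Peaks were found along the whole chromosome, and dense and sparse stretches alternated. The first and last peak bases over the 3 lists were 120187 and 13694432, a covered length of 13.6 Mb. Combined peaks covered 332 kb of it, or 2.45%. There were 29.9 combined peaks per Mb on III, where the other 5 chromosomes had 16.7 to 26.2. III was also the densest of the 6 in replicate 2 (23.9 per Mb, others 13.0 to 20.5) and, narrowly, in replicate 1 (5.53, others 1.73 to 5.44). No test of density was run here.

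By windows of 1 Mb, the combined list had most peaks between 5 and 6 Mb and between 8 and 9 Mb, with 45 in each, followed by 42 between 3 and 4 Mb. Replicate 1 and replicate 2 had their highest numbers in the same 2 leading windows, 11 and 33 peaks in the first, 12 and 39 in the second. Among whole windows the combined list had fewest between 9 and 10 Mb, with 21 peaks, right beside a leading window. Replicate 2 had 22 there and replicate 1 had 2. Over the 14 windows, peaks per covered Mb in the replicates had a Spearman rho of 0.73, as a description. The left-most window, of which 0.880 Mb was covered, had the lowest density, 15.9 per Mb. Among the 12 whole windows of III the lowest number was 21, and on the other 5 chromosomes the lowest whole window held 6 to 12.

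The window from 11 to 12 Mb stood out in its support. It held 23 combined peaks, of which 13 (56.5%, 95% exact binomial interval 34.5 to 76.8) were in neither replicate list, against 24.4% of all combined peaks on III and 7.14% to 33.3% in the other 13 windows. Replicate 2 had 9 peaks there, its lowest number in any window of III, and replicate 1 had 1. None of the 23 was in both lists, which was also so for the 21 peaks between 9 and 10 Mb. The strongest, 11026566 to 11026921 (356 bp, q = 2.75e-11), was the only one with a q of 1e-10 or less. This window was singled out after its values were seen, and it was not tested.

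**Figure D3:**
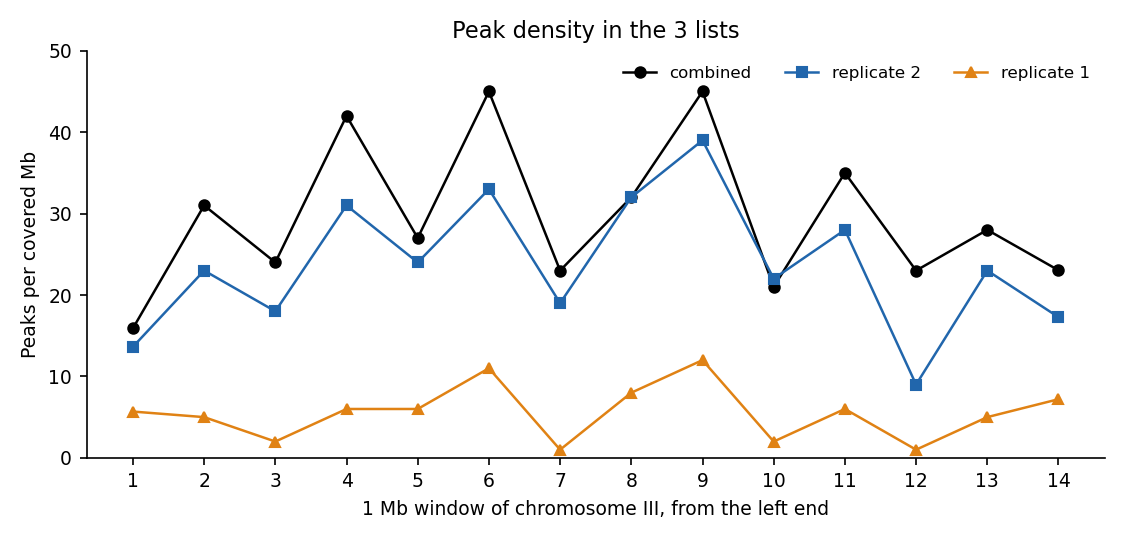
Peaks per covered Mb in each 1 Mb window of chromosome III, numbered from the left end, for the combined list (circles), replicate 2 (squares) and replicate 1 (triangles). All 3 lists have high points at windows 6 and 9, and replicate 2 is lowest, at 9 per Mb, in window 12, between 11 and 12 Mb.

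Divided into 3 equal parts of the covered length, the chromosome held 130 combined peaks on the left, 156 in the centre (from 4644935) and 120 on the right (from 9169684). The numbers of strong peaks, with a q of 1e-10 or less, were 15, 17 and 13. In the centre 44 of 156 (28.2%) measured 1000 bp or more, against 18 of 130 (13.8%) on the left and 22 of 120 (18.3%) on the right. Peaks in both replicate lists made up 14.6% on the left, 18.6% in the centre and 12.5% on the right. These shares within the chromosome are given without a test.

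Spacing was uneven, from 205 bp to 339 kb. The 405 gaps between consecutive combined peaks had a median of 17.6 kb and quartiles of 3.58 and 50.4 kb. The shortest gap was 205 bp, and the shortest gaps of the other chromosomes measured 203 to 212 bp. The sources used here do not give the merging distance. Of the 405 gaps, 46 (11.4%) were 1 kb or less, and on the other 5 chromosomes that share ran from 11.96% to 14.4%. Gaps of 5 kb or less numbered 117 (28.9%), against 28.6% over all chromosomes, and 25 gaps (6.17%) were over 100 kb. On the other 5 chromosomes gaps over 100 kb made up 10.03% to 20.5%. Relative to each chromosome's own mean gap, 32.7 kb on III and 37.2 to 59.0 kb elsewhere, 6.67% of the gaps of III were over 3 means, and the others had 7.46% to 8.65%. These shares were not tested.

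The longest gap, 339 kb, ran from 11321424 to 11660546, inside the window with little replicate support. Neither replicate list had a peak in it, and in replicate 2 the empty stretch reached on to 11823140 (502 kb). The gaps from 9060523 to 9289755 (229 kb), from 154551 to 343657 (189 kb), from 355395 to 535329 (180 kb) and from 1681640 to 1859584 (178 kb) came next. Each was likewise empty in both replicate lists. In replicate 1, the longest empty stretch ran from 5944129 to 6971777 (1028 kb), and 23 combined peaks lay within it. Strong peaks were absent for longer: no peak with a q of 1e-10 or less lay between 11026921 and 12612232 (1585 kb), where 36 weaker combined peaks were found.

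Peaks often came in groups. When consecutive peaks were linked at gaps of 10 kb or less, 255 of the 406 (62.8%) fell into 91 clusters of 2 or more, and 151 stood alone. There were 51 pairs, 20 groups of 3, 12 of 4, 4 of 5, 3 of 6 and 1 of 7. The shares of grouped peaks on the other chromosomes ran from 55.2% to 64.2%. In the replicate lists III had the highest share. It was 45.3% in replicate 1 (others 7.69% to 42.9%) and 60.9% in replicate 2 (others 43.9% to 55.7%). The distance of 10 kb was not scaled to the density of peaks, which was highest on III, and these shares were not tested.

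The largest cluster, 3854885 to 3876200, held 7 peaks in 21.3 kb. At its core were the narrow peak 3866857 to 3867764 and, 1351 bp to its right, the broad peak 3869116 to 3874034. All 7 overlapped a replicate 2 peak, and replicate 1 called only the narrow one. The cluster at 12597098 to 12617470 (6 peaks, 20.4 kb) also held a narrow strong peak, 12612232 to 12612880, and replicate 1 held that peak and its right neighbour 12613942 to 12616217 (q = 4.09e-11).

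The cluster at 10706996 to 10720542 (6 peaks, 13.5 kb) was different in replicate 1. Its broad peak 10715300 to 10720542 followed 10711015 to 10712828 (q = 1.16e-10) and 3 small peaks of 371, 19 and 43 bp, and replicate 1 had no peak in the whole cluster. In the cluster at 1202123 to 1225417 (6 peaks, 23.3 kb) a single peak, 1223491 to 1224156 (q = 4.14e-12), was in both replicate lists, and 4 of the other 5 were in neither. Of the 4 clusters of 5, the left-most, 1271562 to 1285073, had 4 peaks in replicate 2 alone and 1 in neither list.

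**Figure D4:**
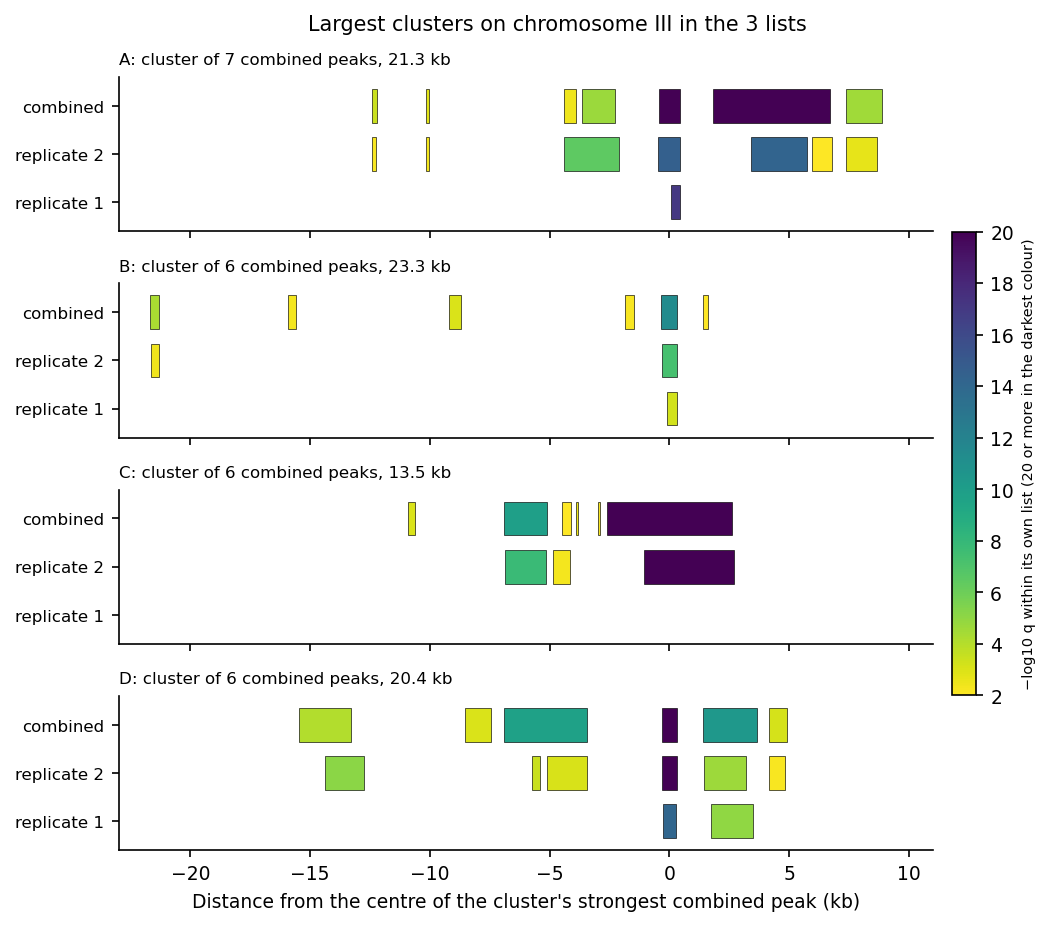
The 4 largest clusters of combined peaks on chromosome III (A, 3854885 to 3876200; B, 1202123 to 1225417; C, 10706996 to 10720542; D, 12597098 to 12617470), drawn to scale as kb from the centre of the strongest combined peak, with bars for the peaks of each list, coloured by −log10 q within that list (20 or more in the darkest colour). Bars under 0.06 kb are widened to 0.06 kb so that they can be seen; replicate 1 has no bar in C and 1 bar in A.

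Near neighbours were counted for strong and weaker peaks, without a test. Of the 45 peaks with a q of 1e-10 or less, 28 (62.2%, 46.5 to 76.2) had another peak within 5 kb, and of the other 361 peaks 164 (45.4%, 40.2 to 50.7) did. On the other chromosomes the difference varied, from 82.5% of strong and 46.3% of weaker peaks on IV to 48.1% and 47.3% on X. Between them, I had 63.9% and 46.1%, V had 53.1% and 42.5%, and II had 52.4% and 49.7%. Of the 117 close pairs on III, 5 joined 2 strong peaks, 28 joined a strong and a weaker one, and 84 (71.8%) joined 2 weaker ones. On the other 5 chromosomes the last share ran from 67.8% to 78.2%.

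To see whether chromosome III differed from the rest in support, strength, width or spacing, 7 shares were compared by two-sided Fisher's exact tests, with Benjamini-Hochberg adjustment over the 7. None passed an adjusted p of 0.05, and 1, replicate 2 support, had an unadjusted p below it. The tests count each peak or gap as independent, which neighbours are not, so the intervals given here may be too narrow.

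Replicate 1 held 73 of the 406 peaks (18.0%) and 14.8% of the peaks elsewhere, a difference of 3.15 percentage points (95% interval -0.64 to 7.45, adjusted p = 0.198, Fisher's exact test). Over all chromosomes it held 15.4%. Replicate 2 held 297 (73.2%) against 68.1% elsewhere and 68.9% over all. The difference of 5.07 points (0.14 to 9.64) had an exact p of 0.0458 before adjustment and 0.198 after it. Support by both differed by 3.15 points (-0.38 to 7.23, adjusted p = 0.198, Fisher's exact test). All 3 differences became smaller without chromosome I, where replicate 1 held 5.58% and replicate 2 held 52.0% of the combined peaks: 0.93, 1.21 and 1.21 points.

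The 45 strong peaks made up 11.1% of the chromosome III peaks, against 10.9% elsewhere and 10.9% over all (difference 0.20 points, -2.85 to 3.85, adjusted p = 0.931, Fisher's exact test). The highest value on III was low among the chromosomes: the strongest peak of III had a strength of 54.0 and stood at rank 21 of the combined list, while the strongest peaks of the other 5 chromosomes reached 70.7 to 193 and ranked 10 or better. In replicate 1 the best rank of III was 8, inside the range of 1 to 9 of the other 5 chromosomes. In replicate 2 it was 22, where the others had 1 to 10. The share of peaks of 1000 bp or more differed by -1.43 points (-5.53 to 3.13, adjusted p = 0.776, Fisher's exact test). Gaps of 5 kb or less differed by 0.30 points (-4.36 to 5.28, adjusted p = 0.931, Fisher's exact test).

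The central part held 38.4% of the chromosome III peaks, against 43.6% on the other 4 autosomes and 42.6% over all 5. The difference of -5.22 points (-10.4 to 0.18) did not pass (adjusted p = 0.198, Fisher's exact test). In the replicate 1 list the sign was opposite, with 44.0% of 75 peaks in the central part, 3.51 points above the other autosomes.

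**Figure D5:**
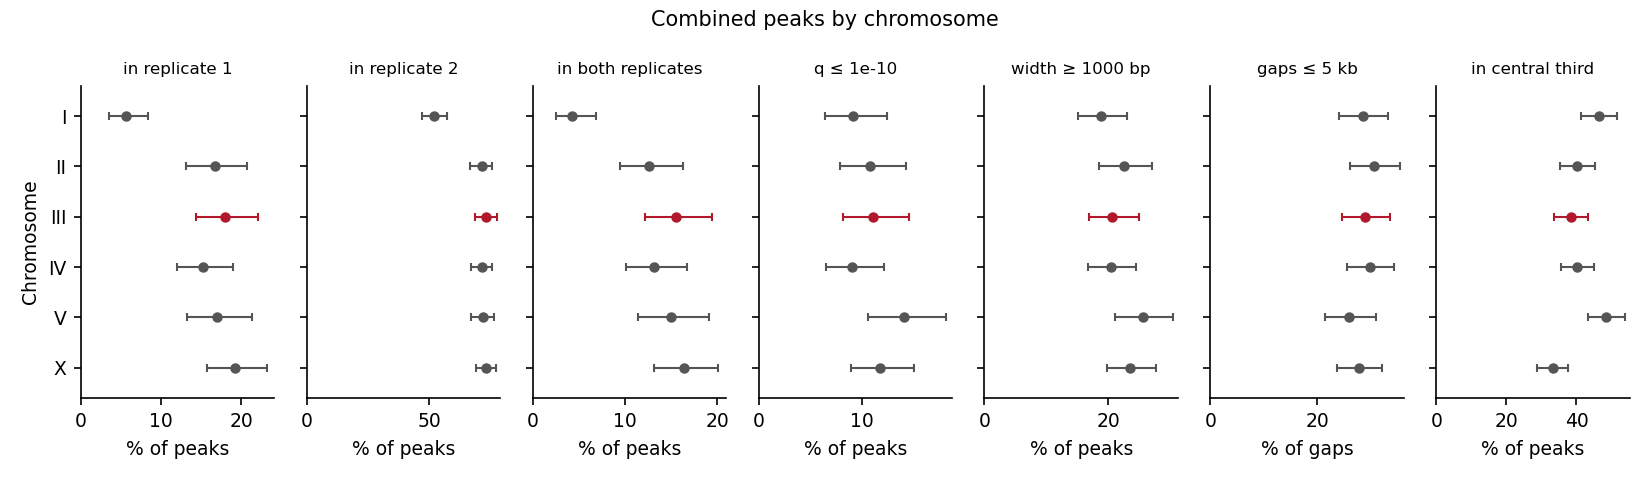
The 7 shares compared, for each chromosome of the combined list, as percentages of peaks (of gaps for the sixth panel), with 95% exact binomial intervals as bars; chromosome III is in red. The III point lies within the range of the other chromosomes in every panel except replicate 2 support, where III and X are level at 73.2% and 73.1%; in the last panel III is the lowest of the 5 autosomes and X lies below it.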

How the data were processed

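The 406 members, the regions named and the tests were chosen with earlier results of these data known. The authors deposited 3 peak lists. Per the file headers they are on WormBase WS190, and each row names PeakSeq as its source. The authors' value per peak is a q-value, and all deposited q-values were below 0.01. The largest was 0.00999. The lists are labelled replicate 1, replicate 2 and combined. Positions are 1-based, as deposited. The sources used here do not give the aligner, the read filters, the PeakSeq version or the input used for replicate 1. Depth is unknown.

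From positions and q-values, widths, gaps, 1 Mb windows, overlaps (at least 1 bp) and clusters were derived in Python 3.11.15 using pandas 2.3.3, numpy 2.4.6 and scipy 1.17.1, with plots from matplotlib 3.10.9. The 7 comparisons are two-sided Fisher's exact tests, Benjamini-Hochberg adjusted over the 7. Overlap, clustering and test functions were tested on simulated data. The covered length of a chromosome spans its outermost peak bases in any list. Shares have 95% exact (Clopper-Pearson) intervals, and differences have Newcombe intervals. Both cover counting error only: regions share libraries, so they do not measure variation between cultures.

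Regions named are the 10 strongest, 5 widest and 3 narrowest combined peaks of III, the 5 strongest of each replicate list that the other lacks, the 3 strongest in neither list, the 5 largest clusters, the 5 longest gaps and the extreme windows. The narrow strong peaks, the flanks of the strongest peak and the 11 to 12 Mb window were singled out after their values were seen.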

Additional observations from a re-analysis of the deposited data

How the results depend on the processing

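Each of the 7 comparisons was repeated with other overlap rules, thresholds and lists, 39 alternatives in all, and none passed an adjusted p of 0.05. The alternative that left out peaks under 50 bp was chosen after the data were seen. The sign changed in 8 of them. For strong peaks the difference was -0.22 points without chromosome I, -0.20 at q of 1e-20 or less, and -1.54 to 2.34 when 1 replicate list was used alone. For broad peaks it was 1.03 among combined peaks with q of 1e-3 or less and -0.99 to 0.99 in single replicate lists. For close neighbours it was -0.81 at q of 1e-3 or less and -0.22 without peaks under 50 bp. For the central share it was -3.94 without replicate 1 and 3.51 without replicate 2, and the other alternatives ran from -5.06 without peaks under 50 bp to -1.02 at q of 1e-3 or less. The cause of these changes was not tested. No paired analysis was possible because the peak lists hold no value per sample. Linking at 5 or 20 kb put 192 or 304 peaks into clusters, in place of 255. Replicate 1 has only 75 peaks on III, so its shares are the least precise.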

Other observations

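Some combined peaks on III were only a few bases wide. The 3 narrowest were 13100644 to 13100645 (2 bp, q = 0.00464), 2700957 to 2700959 (3 bp, q = 0.00962) and 5565230 to 5565241 (12 bp, q = 0.00486), and none of them overlapped a replicate peak. In all, 6 combined peaks of III were under 50 bp, within the range of 2 to 8 on the other chromosomes. The replicate 2 list had 1 such peak on III and 1 to 4 on each of the others. The replicate 1 list had 0 on III and 0 on the others.

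The strongest combined peaks that neither replicate list held were 1618985 to 1619297 (313 bp, q = 2.79e-05), 12149554 to 12150280 (727 bp, q = 3.83e-05) and 5211112 to 5211541 (430 bp, q = 0.000101). They stood at ranks 148, 153 and 178 of the chromosome. Conversely, 21 of the 325 replicate 2 peaks on III were not in the combined list, with q from 0.00198 to 0.00976. That share was not computed for the other chromosomes. Only 1 replicate 2 peak of III bridged separate combined peaks, and 8 combined peaks each held 2 replicate 2 peaks.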
